A study of Mus musculus with 18 samples.

Results

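Peripheral naive CD4 T cells of W131AOTII mice were compared with those of OTII mice, 3 libraries against 3. These are 6 of the 18 libraries of a study of T cell anergy, and they were taken by their group label alone. All mice were C57BL/6 and carried the OT-II transgene, a receptor with Va2 and Vb5 chains that recognises an ovalbumin peptide on MHC class II. W131AOTII mice also carried the W131A substitution of ZAP-70, a kinase of receptor signalling, and neither group lacked Cbl-b. Cells of spleen and lymph nodes were sorted as Va2-positive, CD25-negative naive CD4 T cells with low CD44, and the sources used here name no age, treatment or stimulus. The labels name 3 OTII mice and 12 W131AOTII mice at 4 to a group. The sources used here do not say how mice map to libraries, so p-values measure only the spread between these libraries. The other 12 libraries, of CD4 single-positive thymocytes with and without W131A and of peripheral cells lacking Cbl-b with and without W131A, share the estimate of the spread and enter only where the effect of W131A is compared with its effect there.

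ZAP-70 binds the phosphorylated signalling chains of the T cell receptor through its tandem SH2 domains, is activated there by Lck, and phosphorylates the adaptors LAT and SLP-76. Before it is recruited it is held in a closed, inactive form in which the linker between the SH2 domains packs against the kinase domain, and the tryptophan changed in W131A is part of that contact. Replacing it by alanine loosens the closed form. Anergy is a state in which a T cell that has met antigen without full costimulation, or meets self antigen all the time, responds poorly to a new stimulus. CD73 and folate receptor 4 mark anergic CD4 T cells, and many genes of such cells are also genes of regulatory T cells, the suppressive CD4 lineage set by Foxp3.

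The codon that W131A replaces is shown because the genotype rests on it. It lies in exon 2 of 13 of the Zap70 transcript with the longest coding sequence in GENCODE M21 (618 codons), at chr1:36771201-36771203 on the plus strand of GRCm38, and positions are counted from 1 at the start methionine. The line below runs 5′ to 3′ from 9 codons before it to 3 codons after it (chr1:36771174-36771212), with the tryptophan codon in capitals. It is the reference sequence; reads over the codon and the altered codon itself were not analysed here.
Zap70 W131A codon: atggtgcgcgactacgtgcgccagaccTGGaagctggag

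Zap70 transcript levels did not check the genotype, since the substitution changes the protein and not the gene's presence. Levels are in CPM, read counts per fixed library size after TMM scaling, with replicates 1, 2 and 3 in this order throughout. Zap70 was at 272, 350.0 and 321 CPM in OTII and 299.7, 339 and 361 CPM in W131AOTII libraries. The groups overlapped (log2 fold change 0.08, SE 0.20, adjusted p = 0.98). Cblb, the ubiquitin ligase that restrains receptor signalling and whose loss the study also examines, was at 124, 122 and 142 CPM in OTII and 177, 154 and 146 CPM in W131AOTII libraries. Its 3 W131AOTII values lay above the 3 OTII values but the difference did not pass (log2 fold change 0.30, SE 0.17, adjusted p = 0.69).

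Total counts ran from 28766735 to 30543980 in the OTII libraries and from 31916308 to 36218772 in the W131AOTII libraries. Cd4 and the T cell genes Cd3e, Trac, Lef1, Tcf7 and Ccr7 were abundant in all 6 libraries. Of these only Cd4 was part of the sort, and their levels do not measure its purity. Il2ra, which encodes CD25, and the Trav14 segments of Va2 are given further on. Cd44 was at 46.4, 53.2 and 50.2 CPM in OTII and 33.8, 48.2 and 43.99 CPM in W131AOTII libraries, with no difference past the threshold. Cd8a was at 3.28 to 5.37 CPM in 5 libraries and at 17.2 CPM in W131AOTII replicate 2, while Cd8b1 was at 152 to 187 CPM in all 6. The NK receptor gene Ncr1 and the thymocyte gene Ptcra were at no more than 3 counts in 5 of the libraries, with Ncr1 at 23 counts in W131AOTII replicate 2.

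W131AOTII replicate 2 stood apart and carried transcripts of B cells and myeloid cells. The summed level of 25 B cell markers was 2612 to 2978 CPM in the OTII libraries, 2710 and 2690 CPM in W131AOTII replicates 1 and 3, and 7150 CPM in replicate 2. Cd74, the invariant chain of MHC class II, was at 345, 1967 and 279 CPM in W131AOTII libraries against 330.0, 384 and 342 CPM in OTII libraries, and Cd79a, a signalling chain of the B cell receptor, at 28.4, 154 and 17.4 CPM against 29.3, 32.8 and 28.4 CPM. At 1 CPM or more, 191 genes were at least 4-fold higher in replicate 2 than in both other W131AOTII libraries, 56 of them immunoglobulin segments, 18 on the B cell list and 10 on the myeloid list, against 15 such genes for replicate 1, 4 for replicate 3, and 1, 0 and 3 for the OTII libraries. The summed level of the myeloid and dendritic cell markers was 698 to 756 CPM in OTII and 898 to 931 CPM in W131AOTII libraries. Only 3 of the 191 passed the test between the groups. On the first principal component of the 500 most variable genes, which held 51.5% of the variance, replicate 2 lay at 38.2, the other W131AOTII libraries at 9.28 and 7.97, and the OTII libraries from -20.5 to -16.5. Results are therefore given with and without this library. In bulk RNA, fewer cells of a type and less RNA per cell cannot be told apart.

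With all libraries, 293 of 15204 genes tested (1.93%) changed at an adjusted p under 0.05 (edgeR quasi-likelihood test, Benjamini-Hochberg), 255 higher (1.68%) and 38 lower (0.250%) in W131AOTII cells, and 241 changed at least 2-fold. The median log2 fold change of all genes was -0.00. Of the 293 genes, 121 (0.796% of those tested) passed again in each of 6 fits that left out 1 library, 105 of them higher (0.691%) and 16 lower (0.105%). These 121 carry most of what follows: unless a paragraph says otherwise, a gene named as higher or lower is one of them. The 3 libraries of one group did not overlap those of the other for 292 of the 293 genes, against 19.2% of all genes tested (10.7% higher and 8.54% lower). The 293 were chosen by a test of these same libraries, so the 292 are no separate support for them. Without W131AOTII replicate 2, 195 genes (1.28%) changed, 176 higher and 19 lower, and 187 of these were among the 293. The count was also far lower without an OTII library, at 129 higher and 19 lower without replicate 1, 142 and 19 without replicate 2 and 151 and 19 without replicate 3.

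**Figure D1:**
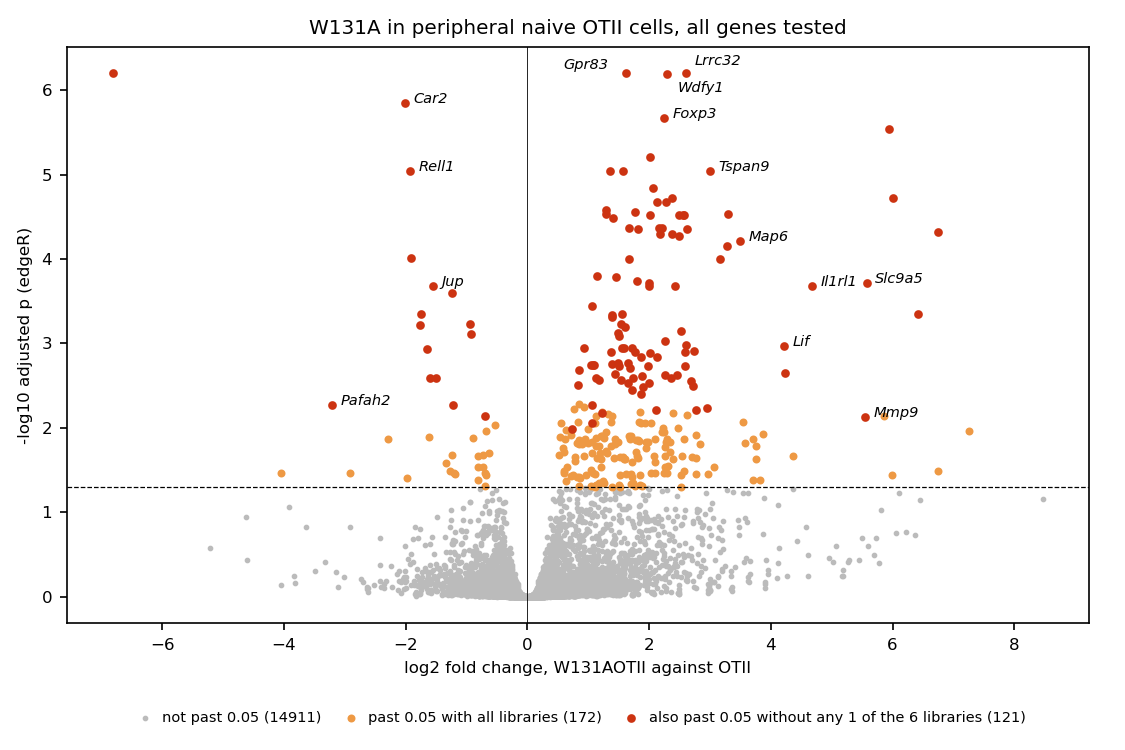
Log2 fold change of W131AOTII against OTII (x) and -log10 adjusted p from edgeR (y) for the 15204 genes tested; the dashed line is an adjusted p of 0.05, and the darkest points are the 121 genes that also passed without any 1 of the 6 libraries. The points past the line lie mostly on the right, 255 against 38 on the left.

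The regulatory T cell list moved furthest of all pathway lists by count. Of 28 genes listed, 26 were tested and 17 rose, none fell, and 13 of the 17 passed in every leave-one-out fit; without W131AOTII replicate 2, 15 rose. The median log2 fold change of the list was 1.75 (1.76 without that library) beside -0.00 over all genes. All 26 fold changes were above 0, and for 24 genes the W131AOTII libraries all lay above the OTII libraries, which 10.7% of all genes did. The list shares members with the anergy, inhibitory receptor and cytokine receptor lists below. Counts of this list and of those below stand beside 1.68% higher and 0.250% lower among all genes tested.

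Foxp3, which sets the regulatory T cell lineage, was at 28.5, 31.1 and 34.3 CPM in OTII and 138, 161 and 148 CPM in W131AOTII libraries. All 3 W131AOTII libraries were more than 4-fold above every OTII library, and Foxp3 was present in OTII cells too (log2 fold change 2.25, SE 0.20, adjusted p = 2.1e-06; 2.20 without W131AOTII replicate 2). Ikzf4, which encodes Eos, a partner of Foxp3, was at 11.3, 13.3 and 15.02 CPM in OTII and 25.7, 29.2 and 32.6 CPM in W131AOTII libraries (log2 fold change 1.14, SE 0.15, adjusted p = 0.00016). Ikzf2, which encodes Helios, was at 5.204, 4.17 and 6.49 CPM and 23.9, 12.5 and 11.4 CPM, with W131AOTII replicate 1 well above the other 2. Ikzf2 passed with all libraries (log2 fold change 1.59, SE 0.37, adjusted p = 0.023), but its adjusted p was up to 0.152 when OTII replicate 1, 2 or 3, or W131AOTII replicate 1, was left out.

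Among surface proteins of regulatory T cells, Lrrc32 (GARP), which holds latent TGF-beta at the cell surface, was at 11.7, 10.2 and 13.5 CPM in OTII and 62.1, 77.97 and 75.4 CPM in W131AOTII libraries (log2 fold change 2.61, SE 0.20, adjusted p = 6.3e-07). Gpr83, an orphan receptor of regulatory T cells, was at 17.2, 19.2 and 19.1 CPM and 51.9, 60.7 and 57.5 CPM. Its values varied little within a group, and it had the smallest SE of these genes (log2 fold change 1.62, SE 0.13, adjusted p = 6.3e-07). Nrp1, a semaphorin co-receptor, was at 21.5, 20.03 and 18.6 CPM and 48.8, 45.2 and 52.9 CPM (log2 fold change 1.29, SE 0.15, adjusted p = 2.7e-05). Ctla4, the inhibitory receptor that competes with CD28 for its ligands, was at 6.47, 4.31 and 3.41 CPM and 16.97, 17.02 and 15.5 CPM, so that the lowest W131AOTII library was above the highest OTII library by more than 2-fold (log2 fold change 1.80, SE 0.24, adjusted p = 0.00018). Capg, an actin-capping protein and not a surface protein, rose by less (log2 fold change 1.23, SE 0.24, adjusted p = 0.0067).

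The calls for integrin chains that activate TGF-beta or hold cells in epithelia rested on fewer libraries. Itgae (CD103) was at 16.9, 12.7 and 13.4 CPM in OTII and 119.5, 44.99 and 40.9 CPM in W131AOTII libraries, with replicate 1 far above the others (log2 fold change 2.26, SE 0.48, adjusted p = 0.017), and its adjusted p was up to 0.11 when OTII replicate 1, 2 or 3, or W131AOTII replicate 1, was left out. Itgb8 was near the limit of detection at 0.0334, 0.103 and 0.143 CPM and 0.482, 1.09 and 0.477 CPM, and its adjusted p of 0.015 was up to 0.114 when OTII replicate 1 or 2, or W131AOTII replicate 2, was left out. Of 25 genes of TGF-beta handling and signalling, 4 rose (Lrrc32, Itgb8, Itgae and Pmepa1) and none fell, with a list median of 0.14. That count was 2 without W131AOTII replicate 2 or OTII replicate 2 or 3, and 1 without OTII replicate 1. Pmepa1, a TGF-beta target that damps the pathway, had an adjusted p of 0.025, or up to 0.173 when OTII replicate 1 or 3, or W131AOTII replicate 2 or 3, was left out.

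**Figure D2:**
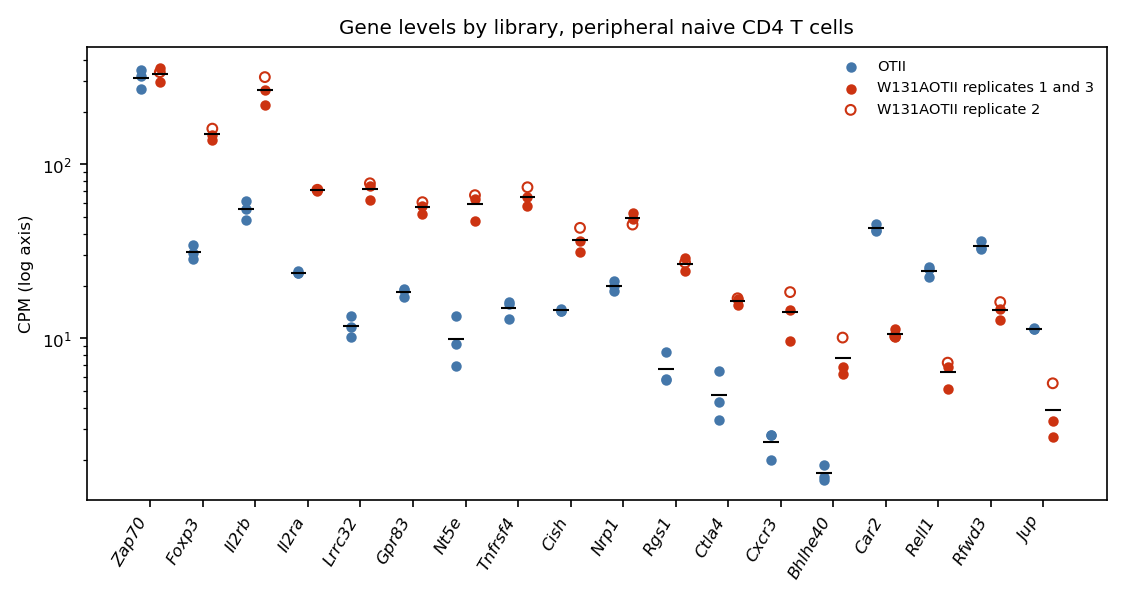
CPM on a log axis in each of the 6 libraries for 18 genes, with OTII to the left and W131AOTII to the right of each pair, W131AOTII replicate 2 as an open point, and a bar at each group mean. The groups overlap for Zap70 and for no other gene shown; Car2, Rell1, Rfwd3 and Jup are lower in W131AOTII libraries.

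IL-2 signals through a receptor of CD25 (Il2ra), CD122 (Il2rb) and the common gamma chain to STAT5, which induces Cish and other SOCS-family inhibitors. Cells had been sorted as CD25-negative, and Il2ra transcripts were present in both groups, at 23.8, 24.3 and 23.7 CPM in OTII and 71.7, 71.6 and 70.02 CPM in W131AOTII libraries. The replicates of Il2ra were nearly equal within each group, and the difference was close to 3-fold (log2 fold change 1.57, SE 0.16, adjusted p = 9.1e-06). Il2rb was at 48.1, 61.7 and 55.6 CPM and 267, 318 and 220.5 CPM (log2 fold change 2.28, SE 0.25, adjusted p = 2.1e-05), with a spread between W131AOTII libraries but no overlap. The receptor and inhibitor genes described here are those that passed with all libraries, not the whole pathway. Cish was at 14.4, 14.4 and 14.8 CPM and 36.5, 43.2 and 31.4 CPM (log2 fold change 1.35, SE 0.14, adjusted p = 9.1e-06), and Socs2 rose from low levels, at 0.667, 0.854 and 0.8603 CPM and 3.14, 6.198 and 4.42 CPM (log2 fold change 2.52, SE 0.39, adjusted p = 0.00071). Socs3, an inhibitor of gp130 signalling, was at 354, 425 and 415 CPM and 594, 630.0 and 799 CPM (log2 fold change 0.76, SE 0.15, adjusted p = 0.006), and its adjusted p was 0.0549 when OTII replicate 1 was left out.

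Of 39 cytokine receptors and their inhibitors tested, 9 rose and none fell, 5 of them in every leave-one-out fit, with a median log2 fold change of 0.28. Without W131AOTII replicate 2 there were 7, and without OTII replicate 1 there were 5. The gene with the largest fold change was Il1rl1, the IL-33 receptor ST2, found on tissue regulatory T cells and type 2 cells. It was at 0.133, 0.103 and 0.0358 CPM in OTII and 2.41, 2.92 and 2.04 CPM in W131AOTII libraries (log2 fold change 4.68, SE 0.65, adjusted p = 0.00021), so it was close to absent in OTII cells and low in W131AOTII cells. Il18rap, a chain of the IL-18 receptor, was at 0.867, 0.8203 and 0.609 CPM and 3.97, 3.24 and 3.47 CPM (adjusted p = 0.011, up to 0.0774 when OTII replicate 1, 2 or 3 was left out). Il1r2, a decoy receptor for IL-1, had an adjusted p of 0.014 (up to 0.0931 when OTII replicate 1 or 2, or W131AOTII replicate 2, was left out), and Il10ra, the IL-10 receptor chain, of 0.014 (up to 0.0969 when OTII replicate 1 or 2, or W131AOTII replicate 2, was left out). Il7r, the survival receptor of naive cells, was at 217, 211 and 175 CPM and 319, 329 and 256 CPM and did not pass (log2 fold change 0.58, SE 0.21, adjusted p = 0.23), while a fit of these 6 libraries alone gave an adjusted p of 0.013.

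Among the 32 genes linked to anergy, 6 rose and 1 fell, and 5 of these 7 held in every leave-one-out fit. Without W131AOTII replicate 2, 5 rose and 1 fell. The list median was 0.48, or 0.35 without that library, and limma voom and DESeq2 called 11 and 10 of the genes higher. Nt5e, the ecto-enzyme CD73 that makes adenosine from AMP, was at 13.4, 9.26 and 6.99 CPM in OTII and 63.7, 66.6 and 47.5 CPM in W131AOTII libraries (log2 fold change 2.58, SE 0.30, adjusted p = 3e-05). Izumo1r, which encodes folate receptor 4, the other surface marker of anergic cells, was at 56.8, 59.7 and 55.4 CPM and 107, 127 and 97.5 CPM. Its groups were well apart, yet the difference just missed the threshold (log2 fold change 0.95, SE 0.24, adjusted p = 0.051); in the 8 other fits tried with all libraries, the adjusted p ran from 1.8e-07 to 0.044. Bhlhe40, a repressor of IL-10 induced by receptor signals, was at 1.601, 1.88 and 1.54 CPM and 6.85, 10.1 and 6.21 CPM (log2 fold change 2.20, SE 0.26, adjusted p = 4.3e-05).

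The list also held genes that were lower or did not pass. Ndrg1, a T cell anergy factor in mice, was lower, at 7.17, 7.68 and 7.26 CPM in W131AOTII against 13.9, 16.03 and 12.6 CPM in OTII libraries (log2 fold change -0.94, SE 0.14, adjusted p = 0.00059). Pdcd1, which encodes PD-1, was at 9.54, 9.501 and 8.17 CPM in OTII and 31.4, 25.2 and 19.3 CPM in W131AOTII libraries; its adjusted p of 0.015 was up to 0.0758 when OTII replicate 1, 2 or 3, or W131AOTII replicate 1, was left out. The ubiquitin ligase gene Itch was at 165, 139.9 and 163 CPM and 140.1, 123 and 139.9 CPM and did not pass (log2 fold change -0.22, SE 0.17, adjusted p = 0.87). Dgka and Dgkz, diacylglycerol kinases that limit Ras activation in anergic cells, had log2 fold changes of -0.06 (SE 0.12) and -0.04 (SE 0.17).

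Of 34 genes that report recent receptor signals, 8 rose and none fell, 5 in every leave-one-out fit; 6 rose without W131AOTII replicate 2 and 5 without OTII replicate 2, and the list median was 0.51. Those 5 were Tnfrsf4, Tnfrsf9, Il2ra, Bhlhe40 and Spry1, of which Tnfrsf4, Tnfrsf9 and Il2ra also belong to the list of regulatory T cell genes. The immediate early gene Nr4a1 was at 40.5, 38.9 and 40.2 CPM in OTII and 69.2, 68.9 and 49.9 CPM in W131AOTII libraries (log2 fold change 0.65, SE 0.15, adjusted p = 0.029). Its groups did not overlap, but the adjusted p was up to 0.114 when OTII replicate 1, 2 or 3, or W131AOTII replicate 1 or 2, was left out. Egr2 was at 24.02, 23.4 and 18.6 CPM and 31.95, 33.8 and 24.4 CPM (log2 fold change 0.45, SE 0.15, adjusted p = 0.21), and Egr1 overlapped between the groups (log2 fold change -0.09, SE 0.16, adjusted p = 0.97). Cd5, whose level follows the strength of self recognition, was at 202, 216 and 228 CPM and 275, 321 and 208 CPM, again with overlap (log2 fold change 0.32, SE 0.16, adjusted p = 0.6). Irf4, a factor induced in proportion to receptor signal, was at 8.84, 5.88 and 10.97 CPM and 18.7, 22.7 and 14.4 CPM (log2 fold change 1.12, SE 0.22, adjusted p = 0.0072), with an adjusted p of 0.0535 when OTII replicate 2 was left out. Cd83 followed replicate 2, at 29.9, 67.3 and 17.7 CPM in W131AOTII against 16.4, 13.2 and 13.3 CPM in OTII libraries, and its adjusted p of 0.022 was up to 0.22 when OTII replicate 1, 2 or 3, or W131AOTII replicate 2, was left out.

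Genes of tissue handling and heat shock share Nr4a1, Egr1, Fos, Jun and other immediate early genes with the receptor-signal list. Their summed level was 2803 to 2946 CPM in OTII and 3145, 3307 and 3861 CPM in W131AOTII libraries, with no overlap and the highest value in replicate 3. Of 23 tested, 1 rose (Nr4a1, lost as given above) and none fell, with a median log2 fold change of 0.33 (0.42 without W131AOTII replicate 2). All W131AOTII libraries lay above the OTII libraries for 10 of the 23, against 10.7% of all genes tested. They all lay below for 3, against 8.54% of all genes tested. The part of handling in the receptor-signal results was not tested.

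The genes of the signalling machinery did not pass the test. Of 31 genes of proximal receptor signalling, from Lck and Zap70 to the CD3 chains and Lat, none passed in either direction, with a median log2 fold change of -0.02 and a range from -0.32 to 1.21; the gene at 1.21 was Syk, at 9.404, 65.9 and 11.1 CPM in W131AOTII libraries, high only in replicate 2. Of 33 calcium, NFAT and diacylglycerol genes, none passed, with a median of -0.06 and a range from -0.34 to 1.29. At an SE near 0.2, changes well under 2-fold in a single gene could have been missed. At a larger SE, changes of 2-fold or more could have been missed too. Of 44 negative regulators, 3 rose and none fell: Spry1, Cish and Socs3. Spry1, an inhibitor of Ras signalling induced downstream of the receptor, was at 1.301, 1.03 and 1.43 CPM in OTII and 7.17, 8.22 and 7.38 CPM in W131AOTII libraries (log2 fold change 2.59, SE 0.44, adjusted p = 0.0019).

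Of 32 costimulatory receptors and TNF receptor family members, 2 rose and none fell, against 1.68% and 0.250% of all genes tested. Both held in every leave-one-out fit. Tnfrsf4 (OX40) was at 16.1, 15.7 and 13.01 CPM in OTII and 64.8, 73.99 and 57.4 CPM in W131AOTII libraries (log2 fold change 2.13, SE 0.24, adjusted p = 2.1e-05), and Tnfrsf9 (4-1BB) at 12.1, 11.04 and 14.1 CPM and 46.8, 38.9 and 32.4 CPM (log2 fold change 1.67, SE 0.20, adjusted p = 4.3e-05). Tnfrsf18 (GITR) was above the OTII values in all 3 W131AOTII libraries without passing (log2 fold change 0.52, SE 0.19, adjusted p = 0.25), and passed at 0.0039 in a fit of these 6 libraries alone. Cd28 lay lower in all 3, also without passing (log2 fold change -0.30, SE 0.16, adjusted p = 0.65). Of 23 genes on the inhibitory receptor list, 5 rose and none fell (Nt5e, Ctla4, Pdcd1, Entpd1 and Cd72). On that list 3 were higher without W131AOTII replicate 2 and 2 without OTII replicate 1 or 3. Nt5e and Entpd1 encode enzymes rather than receptors, and Cd72 is also on the B cell list. Entpd1 (CD39), which supplies AMP to CD73, was at 2.202, 2.56 and 1.398 CPM and 6.798, 12.7 and 7.002 CPM, and its adjusted p of 0.013 was up to 0.0961 when OTII replicate 1 or 3, or W131AOTII replicate 2, was left out. Of 17 purinergic and adenosine genes, 3 rose (Nt5e, Entpd1 and Adk). Adk, the kinase that turns adenosine back into AMP, was at 53.98, 54.03 and 49.4 CPM and 102, 95.3 and 82.4 CPM (log2 fold change 0.83, SE 0.15, adjusted p = 0.0031), with an adjusted p of 0.082 once GC content and length were offset.

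Of 51 chemokine receptor and migration genes tested, which include integrins, proteases and RGS proteins, 14 rose and none fell, 8 in every leave-one-out fit, and the list median was 0.23; 11 rose without W131AOTII replicate 2 and 9 without OTII replicate 1 or 2. Cxcr3, the receptor for interferon-induced chemokines on type 1 cells, was at 2.77, 2.803 and 2.01 CPM in OTII and 14.5, 18.5 and 9.61 CPM in W131AOTII libraries (log2 fold change 2.49, SE 0.29, adjusted p = 3e-05). Ccr8, a receptor of tissue regulatory and type 2 cells, was at 1.27, 0.889 and 1.22 CPM and 4.14, 7.96 and 5.54 CPM (log2 fold change 2.38, SE 0.29, adjusted p = 5e-05). Gpr15, which directs T cells to the large intestine, was at 0.334, 0.581 and 0.824 CPM and 5.98, 5.36 and 5.57 CPM, with nearly equal W131AOTII libraries (log2 fold change 3.28, SE 0.41, adjusted p = 7e-05). Cxcr5, which leads cells into B cell follicles, was at 10.8, 11.4 and 12.9 CPM and 30.7, 67.9 and 28.8 CPM. B cells also express Cxcr5, and its highest value was in replicate 2; without that library the log2 fold change was 1.36 and the adjusted p 0.0075, against 1.86 and 0.0015 with it, and a fit of these 6 libraries alone gave an adjusted p of 0.086.

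Rgs1, which damps signals of chemokine receptors, was at 8.34, 5.81 and 5.77 CPM in OTII and 29.03, 27.3 and 24.3 CPM in W131AOTII libraries (log2 fold change 2.02, SE 0.20, adjusted p = 6.3e-06). Adam19, a membrane metalloprotease, was at 12.3, 11.4 and 12.7 CPM and 49.1, 53.7 and 49.1 CPM, with little spread in either group (log2 fold change 2.06, SE 0.22, adjusted p = 1.4e-05). Jaml, an adhesion molecule of the junctional family, was at 6.94, 7.66 and 8.46 CPM and 38.2, 34.01 and 20.4 CPM (log2 fold change 2.01, SE 0.23, adjusted p = 3e-05). Mmp9, a secreted gelatinase of myeloid cells, was at 0.142, 2.92 and 0.796 CPM in W131AOTII libraries and at 1 count or none in each OTII library, and replicate 2 again held its highest value; its adjusted p was 0.0073, but 0.065 in a fit of these 6 libraries alone. Ccr4 (adjusted p = 0.014) was up to 0.103 when OTII replicate 1 or 3 was left out, Ccr2 (0.015) up to 0.143 when OTII replicate 1 or 2, or W131AOTII replicate 2, was left out, and Rgs16 (0.0088) 0.0685 when OTII replicate 2 was left out. The homing receptors of naive cells did not pass: Ccr7 had a log2 fold change of 0.01 (SE 0.12) and S1pr1 of -0.02 (SE 0.12).

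Of 46 effector and memory T helper genes, 14 rose and none fell, and 7 held in every leave-one-out fit. The list median was 1.17, or 0.89 without W131AOTII replicate 2, when 9 rose; 7 rose without OTII replicate 1 and 9 without OTII replicate 3. Eomes, a T-box factor of memory cells, was at 2.14, 3.896 and 3.33 CPM in OTII and 11.95, 12.3 and 6.75 CPM in W131AOTII libraries (log2 fold change 1.73, SE 0.31, adjusted p = 0.0036). Hopx, a small homeodomain protein of effector memory and induced regulatory T cells, was at 2.302, 2.36 and 2.62 CPM and 10.4, 12.97 and 9.36 CPM (log2 fold change 2.17, SE 0.26, adjusted p = 4.3e-05). Ahnak, a large scaffold protein linked to calcium entry, was at 3.04, 4.41 and 4.59 CPM and 13.001, 15.4 and 7.67 CPM (log2 fold change 1.58, SE 0.25, adjusted p = 0.0011). Tbx21 (T-bet) was at 0.934, 1.44 and 0.574 CPM and 3.82, 6.71 and 2.01 CPM, and its adjusted p of 0.022 was up to 0.149 when OTII replicate 1 or 3, or W131AOTII replicate 2, was left out. Summed levels of NK, gamma-delta and CD8 T cell markers, given further on, were also above the OTII range in all 3 W131AOTII libraries. Prf1 (perforin, adjusted p = 0.016) was up to 0.113 when OTII replicate 1, or W131AOTII replicate 3, was left out, and S100a6 (0.028) up to 0.143 when OTII replicate 1, 2 or 3, or W131AOTII replicate 1 or 2, was left out.

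Of 57 T cell transcription factors, 8 rose and none fell, among them Ikzf4, Bhlhe40 and Eomes in every leave-one-out fit; 5 rose without W131AOTII replicate 2 or OTII replicate 2 and 4 without OTII replicate 1. Gata3 and Bcl6, the factors of type 2 and follicular helper cells, overlapped between the groups (log2 fold change -0.15, SE 0.23, adjusted p = 0.97 for Gata3; log2 fold change 0.10, SE 0.17, adjusted p = 0.97 for Bcl6). Maf, which drives IL-10 and IL-21, was at 0.634, 0.684 and 0.251 CPM in OTII and 2.72, 5.07 and 3.09 CPM in W131AOTII libraries, and its adjusted p of 0.012 was up to 0.0855 when OTII replicate 1 or 3, or W131AOTII replicate 2, was left out. Of 23 follicular helper genes, 4 rose (Cxcr5, Pdcd1, Il21 and Maf), with 3 when W131AOTII replicate 2 was left out, 1 when OTII replicate 1 was, and 2 when OTII replicate 2 or 3 was.

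Of 33 cytokine genes listed, 24 were tested, and 3 rose and none fell. Lif, a gp130-family cytokine, was at 0.0334, 0.137 and 0.143 CPM in OTII and 2.24, 1.41 and 2.39 CPM in W131AOTII libraries (log2 fold change 4.22, SE 0.67, adjusted p = 0.0011). Penk, which encodes the enkephalin precursor and is made by tissue regulatory T cells, was at 0.901, 0.684 and 1.18 CPM and 4.19, 5.68 and 3.41 CPM (log2 fold change 2.26, SE 0.36, adjusted p = 0.00094). Il21 was at 0.0334, 0 and 0.179 CPM and 0.991, 1.19 and 1.05 CPM, a few counts at most in each OTII library, and its adjusted p of 0.012 was up to 0.0864 when OTII replicate 1 or 2 was left out. The list gave 5 without W131AOTII replicate 3.

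Of 30 NF-kB genes, 3 rose and none fell. Bcl3, a nuclear partner of p50 and p52, was at 93.3, 109 and 99.7 CPM in OTII and 165, 191 and 268 CPM in W131AOTII libraries (log2 fold change 1.04, SE 0.18, adjusted p = 0.0018), and Icam1, an adhesion ligand and NF-kB target, at 69.5, 69.995 and 67.03 CPM and 101, 118 and 126 CPM (log2 fold change 0.74, SE 0.15, adjusted p = 0.01). Nfkb2 passed only with all libraries or without W131AOTII replicate 1 (adjusted p = 0.035, up to 0.119 when OTII replicate 1, 2 or 3, or W131AOTII replicate 2 or 3, was left out). None of 27 BCL-2 family and survival genes passed, although Bcl2 itself was at 105, 116 and 146 CPM and 196, 192 and 147 CPM (log2 fold change 0.55, SE 0.19, adjusted p = 0.22). Of 32 cell cycle genes, Top2a and Ccnb2 passed with all libraries, and none did without W131AOTII replicate 2 or without any 1 of the OTII libraries (adjusted p up to 0.0752 for Top2a and 0.198 for Ccnb2).

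Of 38 type I interferon response genes, Oas1a, Oas3 and Ifitm3 passed with all libraries and none in every leave-one-out fit. The list's W131AOTII libraries differed among themselves: 6 of its genes rose without W131AOTII replicate 2, 1 without replicate 3, and none without OTII replicate 2 or 3. Oas1a was at 33.6, 26.2 and 25.3 CPM in OTII and 65.005, 46.1 and 58.4 CPM in W131AOTII libraries (adjusted p = 0.01, up to 0.0563 when OTII replicate 2 or 3 was left out). Oas3 (0.049) was up to 0.183 when OTII replicate 1, 2 or 3, or W131AOTII replicate 1 or 3, was left out, and Ifitm3 (0.024) up to 0.13 when OTII replicate 2 or 3, or W131AOTII replicate 3, was left out. Of the 38 fold changes, 36 were above 0, with a median of 0.38, or 0.55 without replicate 2.

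Of 38 naive and quiescence genes, 1 rose and none fell, a share near that of all genes tested, with a median of -0.02. Lef1 (log2 fold change 0.02, SE 0.12, adjusted p = 1.0) and Tcf7 (log2 fold change -0.02, SE 0.12, adjusted p = 1.0), the factors of naive T cells, did not pass. The 1 gene was Igfbp4, a secreted binding protein of insulin-like growth factors that is abundant in naive CD4 T cells. It was at 364, 644 and 671 CPM in OTII and 1291, 1638 and 1457 CPM in W131AOTII libraries (log2 fold change 1.39, SE 0.27, adjusted p = 0.0072), and the adjusted p was 0.0595 when OTII replicate 1 was left out. Of 26 glycolysis and carbon metabolism genes, none rose and 1, Car2, fell. None of 16 housekeeping genes passed (median 0.07).

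**Figure D3:**
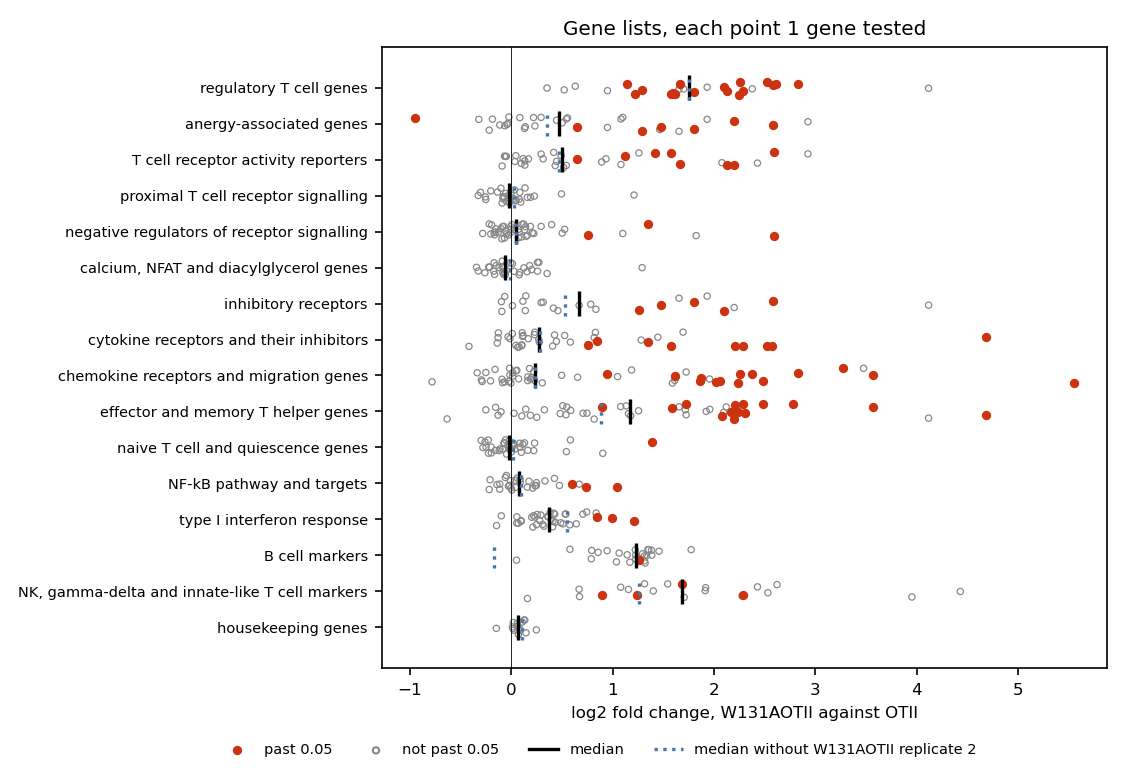
Log2 fold change of W131AOTII against OTII for each gene tested on 16 lists; filled points passed an adjusted p of 0.05, black bars are list medians and dotted bars the medians without W131AOTII replicate 2. The regulatory T cell list has its median at 1.75 and 1.76, while the B cell list moves from 1.23 to -0.17.

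Fewer genes fell. Antigen receptor segments and predicted genes aside, 10 fell at least 2-fold and passed in every leave-one-out fit. Car2, a cytosolic carbonic anhydrase, was at 45.3, 42.2 and 41.4 CPM in OTII and 10.2, 10.3 and 11.3 CPM in W131AOTII libraries, a 4-fold difference with little spread in either group (log2 fold change -2.02, SE 0.18, adjusted p = 1.4e-06). Rell1, a relative of the RELT receptor of the TNF receptor family, was at 25.9, 22.6 and 25.2 CPM and 6.88, 7.26 and 5.12 CPM (log2 fold change -1.93, SE 0.20, adjusted p = 9.1e-06). Jup (plakoglobin), a relative of beta-catenin, was at 11.4, 11.4 and 11.3 CPM and 2.72, 5.52 and 3.34 CPM (log2 fold change -1.56, SE 0.22, adjusted p = 0.00021). Rfwd3, a ubiquitin ligase of DNA repair, was at 33.3, 32.8 and 36.5 CPM and 12.7, 16.2 and 14.7 CPM (log2 fold change -1.23, SE 0.17, adjusted p = 0.00026). Il17rb, the receptor for IL-25, was at 5.104, 4.78 and 4.27 CPM and 1.67, 1.45 and 1.37 CPM (log2 fold change -1.65, SE 0.27, adjusted p = 0.0012).

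Ptprf, a receptor tyrosine phosphatase, was at 23.7, 22.01 and 24.4 CPM in OTII and 6.09, 9.57 and 7.54 CPM in W131AOTII libraries (log2 fold change -1.60, SE 0.28, adjusted p = 0.0025). Chdh, the mitochondrial choline dehydrogenase, was at 16.4, 15.8 and 17.2 CPM and 6.74, 6.17 and 4.58 CPM (log2 fold change -1.50, SE 0.26, adjusted p = 0.0025). Fgfbp3 (-1.77, SE 0.27), Aqp11, an aquaporin (-1.23, SE 0.23), and Pafah2, a phospholipase (-3.20, SE 0.61), completed the 10, with Pafah2 at 0 in W131AOTII replicate 2 and at an adjusted p of 0.298 in a fit of these 6 libraries alone. Hmgb1, a chromatin protein, fell by less than 2-fold, at 33.96, 31.5 and 33.6 CPM and 19.3, 16.6 and 16.1 CPM (log2 fold change -0.93, SE 0.14, adjusted p = 0.00077). None of the lower genes was shared with the B cell, plasma cell, myeloid, NK or CD8 lists.

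Among the 20 genes with the smallest adjusted p that rose at least 2-fold and passed in every leave-one-out fit, several were on none of the lists. Tspan9, a tetraspanin, was at 8.91, 10.97 and 8.57 CPM in OTII and 64.5, 81.2 and 81.6 CPM in W131AOTII libraries, the largest fold change of the 20 (log2 fold change 3.00, SE 0.31, adjusted p = 9.1e-06). Wdfy1, an endosomal adaptor protein, was at 7.61, 6.22 and 7.38 CPM and 34.1, 32.1 and 37.97 CPM (log2 fold change 2.30, SE 0.19, adjusted p = 6.4e-07). Syt11, a synaptotagmin, was at 23.2, 24.8 and 23.8 CPM and 46.8, 58.2 and 70.5 CPM (log2 fold change 1.29, SE 0.15, adjusted p = 3e-05), and Ncmap, a myelin-associated membrane protein, at 1.93, 1.98 and 2.15 CPM and 9.57, 16.96 and 9.17 CPM (log2 fold change 2.55, SE 0.30, adjusted p = 3e-05). Tspan31, another tetraspanin, rose less (log2 fold change 1.40, SE 0.16, adjusted p = 3.3e-05). The remaining genes of the 20 were Gpr83, Lrrc32, Foxp3, Rgs1, Cish, Il2ra, Adam19, Il2rb, Tnfrsf4, Nrp1, Nt5e, Cxcr3, Jaml, Bhlhe40 and Hopx, described above. In all, 82 genes met these conditions for higher genes; antigen receptor segments (25 changed) and predicted genes and pseudogenes (24 changed) were only counted.

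Promoters were read for motifs of STAT factors, AP-1 and NF-kB because Foxp3, Il2ra and Cish are known targets of STAT5, and AP-1 and NF-kB act downstream of the T cell receptor and OX40. In the 250 bases before RefSeq transcription starts (GRCm38.p6), both strands were searched for TTCNNNGAA, the core that STAT factors bind, TGANTCA for AP-1, GGGA, any base and TTTCC for NF-kB, and CACGTG, an E-box. A promoter was on file for 172 of the 255 higher genes and for 10263 of the genes tested. Shares of genes are of those with a promoter on file and count a match in any promoter of a gene. Shares of all are per promoter, a different unit. TTCNNNGAA was found before 11.6% of the higher genes and 7.20% of the genes tested (7.02% of all 32851 promoters), and TGANTCA before 11.6% and 5.22% (6.75% of all). The NF-kB motif was found before 1.16% (only 2 genes) and 0.458% (0.356% of all), and CACGTG before 5.23% and 9.73% (6.02% of all). A promoter was on file for 67 of the genes higher in every leave-one-out fit. Among these the shares were 11.9% for TTCNNNGAA, 14.9% for TGANTCA, 0% for the NF-kB motif and 8.96% for CACGTG. These shares are a description with no test, and a match is not a bound site.

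The promoters of 4 genes that rose at least 4-fold are shown, 2 with a STAT core and 2 with an AP-1 match, each 250 bases 5′ to 3′ on the gene's strand with the match in capitals. The match begins 139 bases before the start of Foxp3, 160 before that of Tspan9 and 199 before that of Gpr15. The regions are chrX:7580233-7580482 (plus strand) for Foxp3, chr6:128095470-128095719 (minus) for Tspan9, chr11:46055734-46055983 (plus) for Adam19 and chr16:58718873-58719122 (minus) for Gpr15.
Foxp3: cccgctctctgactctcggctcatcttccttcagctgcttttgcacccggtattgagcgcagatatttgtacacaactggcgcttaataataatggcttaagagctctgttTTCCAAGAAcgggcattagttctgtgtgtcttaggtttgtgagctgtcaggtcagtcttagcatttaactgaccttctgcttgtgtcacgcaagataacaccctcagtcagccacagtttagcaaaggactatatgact
Tspan9: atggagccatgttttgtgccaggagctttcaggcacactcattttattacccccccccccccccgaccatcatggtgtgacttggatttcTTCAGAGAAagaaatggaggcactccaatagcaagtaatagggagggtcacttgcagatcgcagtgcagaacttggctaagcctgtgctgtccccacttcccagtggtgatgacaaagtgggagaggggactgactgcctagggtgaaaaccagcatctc
Adam19: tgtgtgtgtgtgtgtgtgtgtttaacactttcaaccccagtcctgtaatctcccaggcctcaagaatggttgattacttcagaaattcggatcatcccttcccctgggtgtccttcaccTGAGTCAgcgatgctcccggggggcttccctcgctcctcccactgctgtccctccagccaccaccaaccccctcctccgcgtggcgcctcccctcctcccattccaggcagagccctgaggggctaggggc
Gpr15: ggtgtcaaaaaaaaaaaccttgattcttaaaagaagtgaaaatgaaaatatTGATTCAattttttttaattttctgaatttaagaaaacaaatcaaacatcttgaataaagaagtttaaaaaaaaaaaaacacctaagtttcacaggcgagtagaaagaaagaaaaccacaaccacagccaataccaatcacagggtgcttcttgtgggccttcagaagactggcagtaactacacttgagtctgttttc

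Leaving out W131AOTII replicate 2 removed 106 of the 293 calls, 87 higher and 19 lower, and added 8. The counts without an OTII library, given above, were lower still. The genes described above with values without it kept their direction; Foxp3 was at 2.20, Lrrc32 at 2.56, Il2ra at 1.58, Nt5e at 2.50 and Car2 at -1.98 on the log2 scale, against 2.25, 2.61, 1.57, 2.58 and -2.02 with all libraries. The B cell list behaved otherwise. Its 25 genes all had fold changes above 0 with all libraries and a median of 1.23, which became -0.17 without replicate 2. Cd72, the 1 gene of that list past the threshold, was at 12.7, 15.2 and 12.9 CPM in OTII and 30.9, 48.01 and 19.1 CPM in W131AOTII libraries, with an adjusted p of 0.013, or up to 0.0957 when OTII replicate 1 or 3, or W131AOTII replicate 2, was left out. None of the 24 myeloid and dendritic cell genes passed; their median was 0.94 with replicate 2 and -0.05 without. Replicate 2 was the highest W131AOTII library for 125 of the 255 higher genes, replicate 1 for 86 and replicate 3 for 44.

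**Figure D4:**
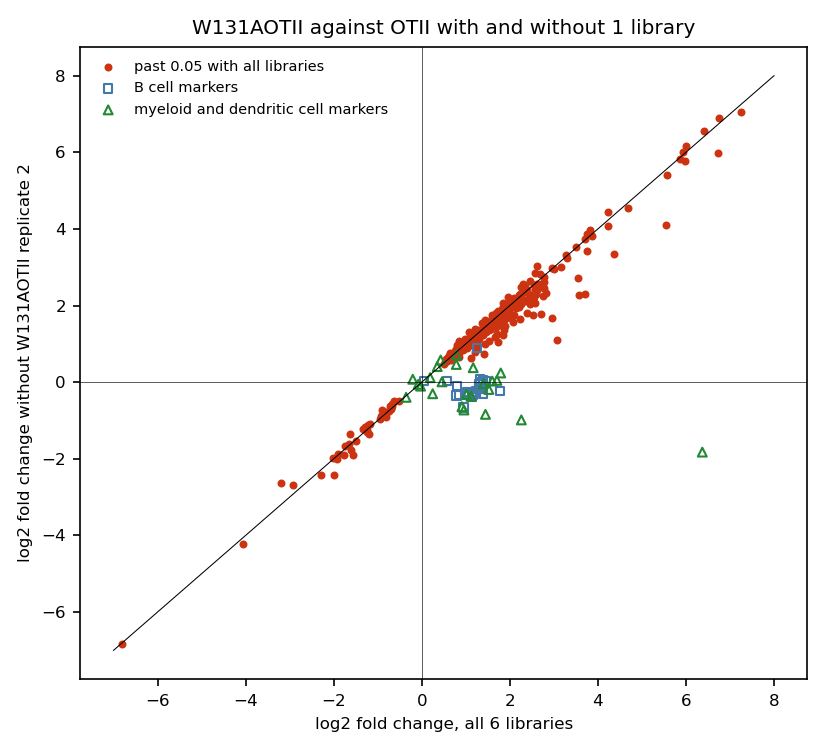
Log2 fold change with all 6 libraries (x) against the same without W131AOTII replicate 2 (y), for the 293 genes that passed, the B cell markers (squares) and the myeloid and dendritic cell markers (triangles); the line marks equal values. Most B cell markers lie below the line, near 0 on the y axis, with a median of -0.17 there against 1.23 on the x axis.

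The summed level of NK, gamma-delta and innate-like T cell markers did not overlap between the groups. It was 242 to 270.4 CPM in OTII and 745, 546 and 529 CPM in W131AOTII libraries, and 4 of 21 genes tested rose (Trdc, Trdv4, Klrd1 and Prf1), with a list median of 1.69, or 1.26 without replicate 2. Only 1 rose without OTII replicate 1, 2 without OTII replicate 2 or W131AOTII replicate 1, and 8 without W131AOTII replicate 3. Trdc, the constant gene of the delta chain, was at 64.7, 67.7 and 55.9 CPM in OTII and 291, 168 and 148 CPM in W131AOTII libraries, highest in replicate 1 (log2 fold change 1.69, SE 0.29, adjusted p = 0.002). Trdv4 had an adjusted p of 0.013 (up to 0.0962 when OTII replicate 1 or 2, or W131AOTII replicate 1, was left out) and Klrd1 of 0.042 (up to 0.244 when OTII replicate 1, 2 or 3, or W131AOTII replicate 1 or 2, was left out). The CD8 T cell list, which shares Klrd1, was at 320 to 351 CPM and 619, 608 and 464 CPM, with Eomes, Ctsw and Klrd1 higher of 10. Ctsw, a protease of cytotoxic cells, was at 68.5, 52.3 and 50.3 CPM and 189, 209.9 and 123 CPM (log2 fold change 1.61, SE 0.24, adjusted p = 0.00064). The part of such cells in the effector and transcription factor results, which share Eomes and Prf1 with these lists, was not tested.

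Variable segments of the T cell receptor beta chain also moved. OT-II uses Trbv12 segments for Vb5 and Trav14 segments for Va2. The 2 Trbv12 segments Trbv12-1 and Trbv12-2 took 49.4, 53.6 and 53.0% of all Trbv counts in OTII libraries and 30.2, 26.0 and 35.1% in W131AOTII libraries, from 25090 to 48678 Trbv counts per library, so the groups did not overlap. Of 22 Trbv segments tested, 14 rose and none fell, 10 in every leave-one-out fit and 12 without W131AOTII replicate 2, with a median of 1.28. Of 64 Trav segments, 2 rose and 1 fell, where 1.68% of all genes tested rose and 0.250% fell. None of these 3 segments held in every leave-one-out fit, and no Trav segment rose without W131AOTII replicate 2. Trav14 segments took 18.8, 15.8 and 15.1% of Trav counts in OTII and 23.5, 37.6 and 20.2% in W131AOTII libraries, highest in replicate 2. Segments that share sequence, Trbv12-1 and Trbv12-2 among them, could exchange reads in the authors' counting, and the part of other V segments in the gene results was not tested.

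W131A was also compared in thymocytes and in peripheral cells lacking Cbl-b, which share no library with the 6 described here. Of the 293 genes, 84 (28.7%) also changed in the same direction in CD4 single-positive thymocytes, where 421 genes changed (2.77% of those tested, 1.73% higher and 1.04% lower; the 84 are 19.95% of them), and 7 changed in the opposite direction. In cells lacking Cbl-b, 82 of the 293 (28.0%) changed in the same direction, and 6 in the opposite direction. There, 287 genes changed (1.89%, with 0.802% higher and 1.09% lower), and the 82 are 28.6% of them. Across all genes tested, the Pearson correlation of the log2 fold changes was 0.30 between periphery and thymus. Between peripheral cells with and without Cbl-b it was 0.06. There were 33 genes that changed in 1 direction in all 3 settings, among them Foxp3, Lrrc32, Nt5e, Il2ra, Cish, Tspan9, Adam19, Wdfy1, Rgs1, Car2, Rell1 and Jup. Foxp3 had a log2 fold change of 2.25 in the periphery, 1.22 (SE 0.20) in the thymus and 1.43 (SE 0.20) without Cbl-b.

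The difference between the effect in the periphery and that in the thymus passed for 58 genes (0.381%), 45 of them positive (0.296%) and 13 negative (0.0855%), and 23 passed in each of 12 leave-one-out fits, as did the differences named next. The count was 37 without OTII replicate 2, 24 without OTII replicate 3, 32 without W131AOTII replicate 1, 29 without W131AOTII replicate 2, and 117 and 36 when thymic W131AOTII replicates 1 and 3 were left out. Gpr83 rose in the periphery (1.62) and fell in the thymus (-0.71, adjusted p = 0.0031), a difference of 2.33 (SE 0.18, adjusted p = 1.1e-06). Nr4a1 was 0.65 in the periphery and -0.96 in the thymus (difference 1.61, SE 0.22), and Irf4 1.12 and -1.24 (difference 2.36, SE 0.31). Cd5 was 0.32 in the periphery, where it did not pass, and -1.35 in the thymus, where it did (difference 1.67, SE 0.23, adjusted p = 0.00096). Tnfrsf4, Ccr8, Gadd45g, a growth arrest gene, Ncmap and Ikzf4 had positive effects in the periphery and effects from -0.82 to -0.06 in the thymus that did not pass there.

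With and without Cbl-b, the difference in the effect of W131A passed for 96 genes (0.631%), 90 positive (0.592%) and 6 negative (0.0395%), 48 of them in each of 12 leave-one-out fits, as did the differences named next. The count was 60 without OTII replicate 1 and 219 without Cbl-b-/- OTII replicate 3. Cxcr3 was 2.49 with Cbl-b and -1.04 without (difference 3.53, SE 0.39, adjusted p = 0.0002). Il1rl1 was 4.68 and -2.35 (difference 7.03, SE 0.83), Ccr8 2.38 and -0.34 (difference 2.71, SE 0.39), and Penk 2.26 and -0.69 (difference 2.95, SE 0.48). Rfwd3 fell with Cbl-b (-1.23) and was at 0.25 without, where it did not pass (difference -1.48, SE 0.24). Of the 38 interferon response genes, 26 had a positive difference that passed and none a negative one, with 22 to 30 passing when 1 of the 12 libraries was left out. On that list the median effect was 0.38 with Cbl-b, where 3 genes rose, and -1.05 without, where 29 fell. Medians of the B cell list were 1.23 with Cbl-b and -0.98 without, and those of the myeloid list 0.94 and -0.69. No B cell gene and 2 of the 24 myeloid genes had a difference that passed. The part of such cells in these differences was not tested. Foxp3 (0.82, adjusted p = 0.25), Lrrc32 (0.33, 0.66) and Nt5e (0.82, 0.41) had differences that did not pass, which does not show that W131A acted alike on them.

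**Figure D5:**
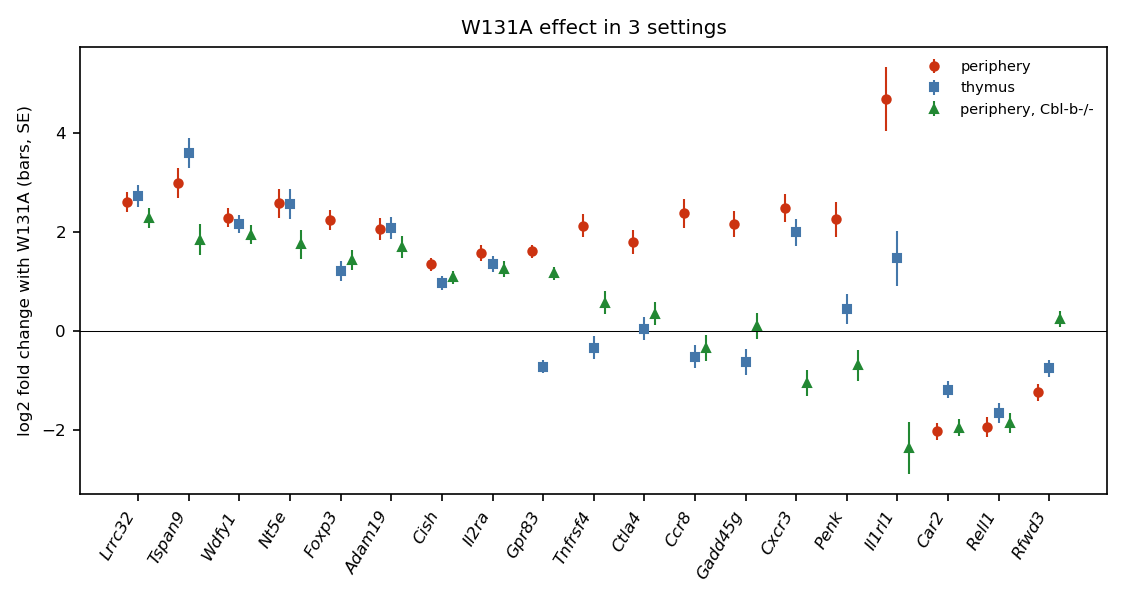
Log2 fold change with W131A for 19 genes in peripheral cells (circles), thymocytes (squares) and peripheral cells lacking Cbl-b (triangles); bars are SE. Lrrc32, Foxp3 and Car2 keep their sign in all 3 settings, while Gpr83 is at 1.62 in the periphery and -0.71 in the thymus, and Cxcr3 at 2.49 with and -1.04 without Cbl-b.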

How the data were processed

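The values are read counts per gene, deposited by the authors as 1 table of 18 libraries; the submitters' processing notes name STAR 2.7.2, GRCm38 and DESeq2, and the sources used here do not describe filters or the counting step. Libraries were single-end 50-base RNA-seq of sorted cells, per the labels' protocols. Genes with low counts were removed with edgeR's filterByExpr, which left 15204 of 55536 gene identifiers. edgeR 4.0.16 (TMM scaling, robust quasi-likelihood F test, Benjamini-Hochberg adjustment, threshold 0.05) was fitted to all 18 libraries with a mean per group, and the W131A effect and its differences from those in thymocytes and without Cbl-b were taken as contrasts; the procedure was tested on simulated data. SE was the log2 fold change divided by the square root of F. Gene names and positions come from GENCODE M21.

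Alternatives were each library left out, library size scaling, other filters, GC and length offsets, a replicate block, a fit of the 6 libraries alone, limma voom and DESeq2. Named genes were up to 20 with the smallest adjusted p in each direction among those changed at least 2-fold that passed in every leave-one-out fit. Up to 8 changed genes of each list were also named, with any of its first 4 members that did not pass. The 8 leading genes of each difference and the genes of the sort and genotype were added. Others were named after their values were seen. Members and lists were chosen with earlier results of these data known. Replicates of a group differed beyond sampling noise. Libraries that share a replicate number did not deviate together (correlations 0.15, 0.03 and -0.00), so no pairing was used. A few genes are not reported here.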

Additional observations from a re-analysis of the deposited data

Results flagged for a closer look

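The W131A effect differed between the periphery and the thymus for 58 genes by the test of the difference (edgeR quasi-likelihood, adjusted over all genes). Among genes named above, the difference on the log2 scale, periphery minus thymus, was 3.37 for Ncmap, 2.89 for Ccr8, 2.79 for Gadd45g, 2.46 for Tnfrsf4, 2.36 for Irf4, 2.33 for Gpr83, 1.67 for Cd5, 1.61 for Nr4a1 and 1.21 for Ikzf4, each in 12 of 12 leave-one-out fits. It was 1.11 for Nrp1 in 11 of 12 fits (adjusted p = 0.0663 without OTII replicate 3), and 1.75 for Ctla4 and 1.11 for Egr2 in 6 of 12. Differences of 2.54 for Gpr15, 1.80 for Igfbp4 and 1.16 for Bcl3 held in 2, 3 and 3 of 12 fits.

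With and without Cbl-b, the W131A effect differed for 96 genes. The difference, Cbl-b present minus absent, was 7.03 for Il1rl1, 6.02 for Ccr2, 4.16 for Il1r2, 3.53 for Cxcr3, 3.26 for Ifitm3, 2.95 for Penk, 2.71 for Ccr8, 2.06 for Gadd45g, 1.89 for Oas3, 1.66 for Oas1a and -1.48 for Rfwd3, each in 12 of 12 leave-one-out fits. It was 3.99 for Ccnb2 in 11 of 12 fits (adjusted p = 0.0801 without OTII replicate 1), -1.04 for Hmgb1 in 10, and 3.64 for S100a6 in 9. Differences of 1.55 for Tnfrsf4, 1.71 for Bhlhe40, 1.31 for Ccr4, 0.98 for Icam1 and 6.44 for Mmp9 held in 6, 5, 5, 4 and 3 of 12 fits. Ccr2 was at 0.85, 7.03 and 1.75 CPM in W131AOTII libraries, highest in replicate 2, which carried B cell and myeloid transcripts. The part of such cells in the differences was not tested.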

How the results depend on the processing

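The number of genes changed by W131A in the periphery was 293, and ran from 148 to 341 when 1 library was left out. It was 772 with no filter on low counts, 512 in a fit of the 6 libraries alone, 641 with limma voom and 478 with DESeq2; with a replicate block, it was 262. Genes whose effect differed from the thymus numbered 58, or 24 to 117 with 1 library left out, 365 with no filter, 107 with GC and length offsets, 556 with limma voom and 210 with DESeq2. Those that differed with and without Cbl-b numbered 96, or 60 to 219 with 1 library left out, 832 with no filter, 149 with offsets, 694 with limma voom and 234 with DESeq2. The replicate block ended the calls for Nfkb2 (adjusted p = 0.063) and Oas3 (0.070) and added Izumo1r (0.044) among the genes named. A fit of the 6 libraries alone ended 9 calls among them and added 3. The 9 were Itgae (0.17), Ccr2 (0.16), Cd72 (0.13), Cd83 (0.38), Klrd1 (0.053), Oas3 (0.105), Cxcr5, Mmp9 and Pafah2. Limma voom ended 4, Ccnb2 (0.23), Ccr2 (0.093), Maf (0.058) and Mmp9 (0.056), and added 5. Library size scaling ended the call for Klrd1 (0.061) and added Izumo1r (0.043). Directions changed only for genes that did not pass. Ccr7 was at -0.018 with library size scaling, -0.015 with offsets and -0.012 with limma voom, Lef1 at -0.0091 and -1.04e-05 with library size scaling and limma voom. With 1 library left out, log2 fold changes ran from -0.033 to 0.079 for Ccr7, -0.16 to 1.73 for Cd74, -0.38 to 1.61 for Cd79a, -0.10 to 0.027 for Dgkz, -0.20 to 0.094 for Egr1, -0.030 to 0.078 for Lef1, -0.074 to 0.039 for S1pr1, -0.26 to 1.64 for Syk, -0.11 to 0.042 for Tcf7 and -0.0053 to 0.18 for Zap70; the lowest values of Cd74, Cd79a and Syk were those without W131AOTII replicate 2. The causes were not tested. The median SE of 0.23 and 3 libraries a group limit what could be detected, and genes under about 1 CPM rest on few reads.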
